A study of Homo sapiens with 36 samples.

Results

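LNCaP cells treated with atirmociclib at 1 µM for 24 h were compared with vehicle-treated cells harvested at the same time, across all genes of the deposited table. The comparison rests on 6 of the 36 libraries, 3 of atirmociclib and 3 of vehicle, taken by their labels. LNCaP is an established human prostate cancer cell line that responds to androgens. Other wells of the series received AU2-94 at 1 or 2 µM, atirmociclib at 2 µM or ribociclib at 2 µM, and every group was taken in 3 biological replicates after 24 h and again after 72 h. All groups are unmodified cells of this single line in culture. The vehicle labels also carry a dose of 2 µM, for which no meaning is given in the sources used here. The labels number the replicates within each group, and same-numbered libraries may share a batch. Wells for 72 h were seeded more thinly than wells for 24 h, so time and density varied together. The comparison asks which transcripts differ after 1 day of this inhibitor.

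Atirmociclib is a CDK4-selective kinase inhibitor. CDK4, bound to a D-type cyclin, phosphorylates the retinoblastoma protein (RB) in G1, which releases E2F transcription factors and permits entry into S phase. Genes of S phase are typically driven by E2F, whereas genes of G2 and mitosis are driven later by a complex of MuvB with MYBL2 and FOXM1. In luminal prostate cells androgens raise secretory genes such as KLK3 (prostate-specific antigen) and lower others.

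The deposited values are normalised counts, which are reads scaled by the authors to make libraries comparable. Totals of the 6 libraries ran from 20675156 to 21717627, and mitochondrial transcripts took 6.45% to 7.23% of them. Pearson's r between libraries over the 16137 genes tested was 0.981 to 0.985 within a group and 0.962 to 0.967 between the groups, as a description. All 10 luminal markers, among them KLK3, KLK2, HOXB13, FOXA1, KRT8, KRT18, ACP3 and FOLH1, were present, with summed levels of 139440 to 140855 under atirmociclib and 102566 to 107536 in vehicle. The 6 basal markers summed to 46.1 to 94.7 in any library, with 3 of them never above 3. The 8 neuroendocrine markers summed to 22.9 to 41.5, with 5 never above 3. The 11 fibroblast, endothelial and immune markers summed to 589 to 686 under atirmociclib and 764 to 939 in vehicle, and the part of these markers in the results was not tested.

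Genes that reached 10 normalised counts in 3 or more of the 18 libraries of 24 h were tested with limma on log2(normalised count + 1). Fold changes on this scale understate the change of low genes. A gene was called when its Benjamini-Hochberg adjusted p was at most 0.05 and its absolute log2 fold change at least 1. Of 16137 genes, 242 (1.50%) were called higher and 681 (4.22%) lower, so that 73.8% of the calls were falls. By adjusted p alone, 2676 genes (16.6%) were higher and 2488 (15.4%) lower. Groups without overlap were common. Every treated library lay above every vehicle library in 22.8% of tested genes, and below every vehicle library in 21.8%. The median log2 fold change of all genes was 0.00, that of the lowered genes was -1.64 and that of the raised genes 1.47. Falls also reached further, with 81 genes at -3 or below and 21 at 3 or above. Raised genes were low in level, with a median normalised count of 36.5 against 197 for lowered genes and 409 for all genes. These values are bulk levels, in which fewer cells of a phase and less RNA per cell cannot be told apart.

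**Figure D1:**
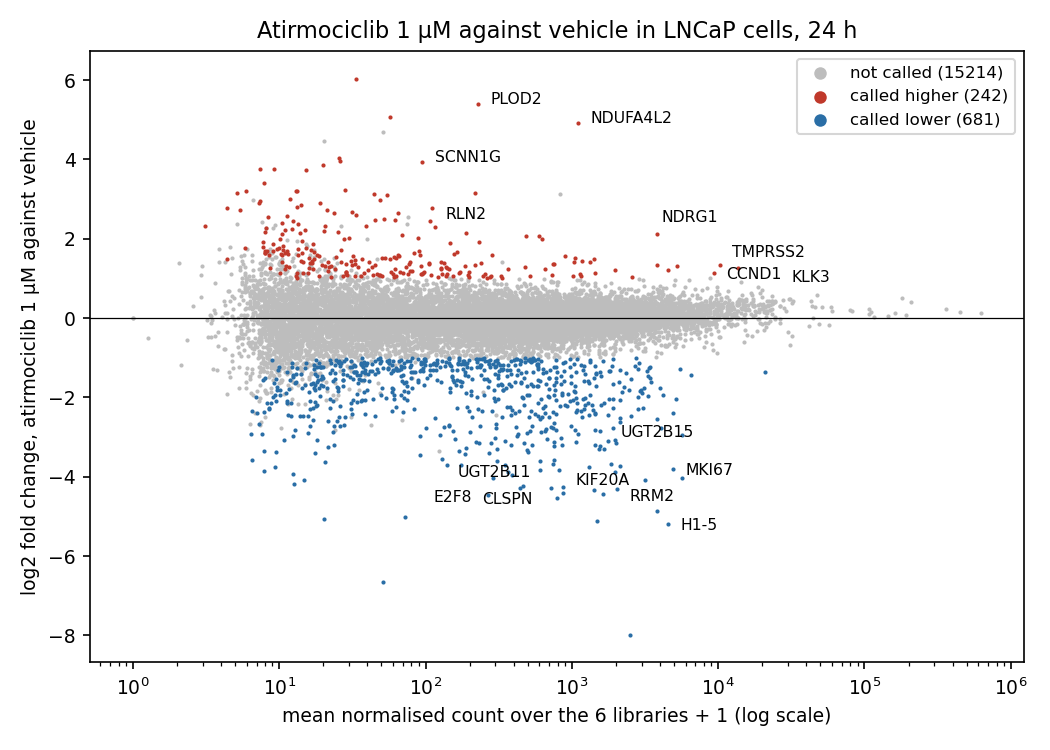
Log2 fold change of atirmociclib 1 µM against vehicle at 24 h for each of 16137 genes, against the mean normalised count of the 6 libraries plus 1 on a log axis. The 681 called falls extend to high levels and below -4, whereas most of the 242 called rises lie at low levels.

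The 12 largest falls included 7 replication-dependent histone genes, along with the replication checkpoint adaptor CLSPN, the atypical E2F repressor E2F8, the mitotic kinesin KIF20A and the ribonucleotide reductase subunit RRM2. H1-5, a linker histone on chromosome 6 (27866792 to 27867588, GRCh38), had normalised counts of 242, 269 and 219 under atirmociclib and 9112, 8968 and 8635 in vehicle. The groups did not overlap, with a log2 fold change of -5.19 ± 0.12 (standard error, here and below after ±; n = 3 per group; limma adjusted p = 1.07e-15). The core histone genes H2BC14, H3C12, H2AC16 and H2BC17 had log2 fold changes of -5.12, -5.01, -4.43 and -4.33, with adjusted p from 4.16e-07 to 2.89e-15 in limma. H3C12 shares 346 exon bases with H2AC17 on the same strand. H4C14 and H4C15 share a stretch of 1547 identical bases, so their separate values are uncertain. Their sum was 747, 775 and 903 in the treated libraries and 13203, 11037 and 11449 in vehicle, which is 14.7-fold lower. The remaining gene was the long non-coding RNA ENSG00000290556. It was listed at 0 in the 3 treated libraries and at 98.4 to 103 in vehicle, shares 1073 identical bases with NAIP, and is therefore also uncertain.

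CLSPN on chromosome 1 (35720218 to 35769978) stood at 62.0, 53.5 and 81.0 under atirmociclib against 1555, 1530 and 1498 in vehicle. Every treated library was far below every vehicle library, a 23.3-fold lower mean (log2 fold change -4.54 ± 0.14, limma adjusted p = 1.81e-14). E2F8 stood at 24.2, 20.2 and 21.7 against 536, 516 and 475. RRM2 stood at 249, 156 and 194 against 3728, 3797 and 4113. Neither gene overlapped between the groups, and the log2 fold changes were -4.47 and -4.30 (limma adjusted p = 8.77e-10 and 6.75e-13). Of the 24 genes with the largest changes, 7 have exons that overlap those of another gene, among them CLSPN and KIF20A. The strand setting of the counting is not given in the sources used here, so reads from partners on opposite strands cannot be told apart. Exons of CCND1, CDKN2C, TMPRSS2 and HEXIM1, described below, also overlap a gene on the opposite strand.

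The components of the CDK4 axis itself moved in both directions at the transcript level, while CDK4 and CDK6 did not pass the test. CDK4, the target kinase, was at 2323, 2328 and 2374 under atirmociclib and 2267, 2328 and 2410 in vehicle. The groups overlapped fully and the difference was 0.00 ± 0.06 (limma adjusted p = 0.965). CCND1, the cyclin D1 partner of CDK4, rose in every library, from 7440, 7547 and 7791 in vehicle to 12502, 11920 and 11992 (log2 fold change 0.68 ± 0.04, limma adjusted p = 7.06e-10). CCND3 (-0.84) and RB1 (-0.34) fell, with the log2 fold change in brackets here and below. Of the RB relatives, RBL1 or p107 (-1.52) fell while RBL2 or p130 (0.52) rose. CDK6 was low and variable, at 39.6, 214 and 158 under atirmociclib against 185, 31.0 and 122, and its difference of 0.31 ± 0.68 did not exceed that spread. Of the 7 tested genes of this list, 2 rose and 3 fell by adjusted p, with a median of 0.00.

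Among the 7 genes for CDK inhibitor proteins, 4 fell, 0 rose and the median was -0.41. CDKN2C, or p18 (-3.14), fell from 442, 438 and 370 in vehicle to 60.9, 41.7 and 39.0. CDKN2D or p19 (-0.87), CDKN2A (-0.70) and CDKN1A or p21 (-0.27) fell too. CDKN1B (p27), with a difference of -0.03, was not past the test.

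The E2F family split by member. The activators E2F1 (-1.67) and E2F2 (-3.14) and the atypical repressors E2F7 (-4.03) and E2F8 fell. E2F1 was at 308, 325 and 311 under atirmociclib and 970, 984 and 1069 in vehicle, without overlap (limma adjusted p = 2.83e-11). E2F3 and E2F4 differed by -0.06 and -0.05 and were not past the test. In all, 5 of 10 E2F and DP genes fell and 1 rose, and the median was -0.39. All 5 genes for cyclin E, cyclin A, CDK2 and the activating phosphatase CDC25A fell, with a median of -2.14. CCNE2 (cyclin E2) was at 54.8, 36.2 and 55.6 against 525, 722 and 682 in vehicle, a log2 fold change of -3.70 ± 0.25. CCNA2 (cyclin A2) was at 96.1, 121 and 104 against 1584, 1478 and 1505, a log2 fold change of -3.83 ± 0.14. The 2 genes were separated between the groups (limma adjusted p = 1.17e-09 and 2.83e-13). CCNE1 (-0.41) fell less.

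Most genes of S phase fell. For origin licensing and firing, the steps that load and activate the replicative helicase, 23 of 27 genes fell, 0 rose and 18 were called lower, with a median of -1.39. MCM10 and CDC45, which activate the helicase, had log2 fold changes of -3.22 and -3.19. The helicase subunits MCM2 to MCM7 all fell, with log2 fold changes from -1.97 to -0.91, and 5 of the 6 were called. At the replication fork, 28 of 32 genes fell and 1 rose, with a median of -1.14. PCNA, the sliding clamp, was at 642, 661 and 653 against 3248, 3240 and 2960 in vehicle (log2 fold change -2.27 ± 0.07, limma adjusted p = 2.80e-14). In deoxynucleotide synthesis, 10 of 12 genes fell and 1 rose. Thymidylate synthase TYMS (-3.13), thymidine kinase TK1 (-2.31) and RRM1 (-1.61), the partner of RRM2, fell.

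The replication-dependent histones, which package new DNA, had the lowest median of the lists with at least 5 genes tested. Of 51 tested, 48 fell, 0 rose and 46 were called, with a median of -2.80 against 0.00 for all genes. Summed over the 62 histone genes of the table, the level was 35030, 36171 and 37254 under atirmociclib and 189028, 177520 and 179669 in vehicle, 5.04-fold lower. Replication-dependent histone messages largely lack poly(A) tails, and the study's methods name a total RNA library kit (Universal Plus Total RNA-Seq). The genes cluster on chromosome 6, where 7.76% of tested genes were called lower. Without the histones this share was 3.38%, and 4.22% of all genes were called lower with the histones included.

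Genes that assemble chromatin and maintain DNA methylation were lower in 16 of 17 cases, with none higher and a median of -1.36. UHRF1, which guides methylation of new DNA, and ASF1B, a histone chaperone, had log2 fold changes of -2.36 and -2.33. In homologous recombination and the Fanconi anaemia pathway 27 of 33 genes fell and 0 rose. Among these falls was that of the nuclease EXO1 (-3.61).

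Genes of G2 and mitosis fell as well. All 31 mitotic kinesins and spindle proteins were lower by adjusted p, 27 were called, and the median was -2.39. KIF20A stood at 64.8, 86.5 and 78.8 against 1641, 1735 and 1584 in vehicle. The separation was complete, with a log2 fold change of -4.42 ± 0.22 (limma adjusted p = 1.47e-11). All 20 genes for cyclin B, CDK1 and mitotic kinases were lower, with a median of -2.0. CDK1 was at 546, 553 and 539 against 3187, 3091 and 2738, and CCNB1 (-1.2) fell less steeply. AURKB (-3.95) and PLK1 (-3.19) are kinases of chromosome segregation. In kinetochores and the spindle checkpoint 38 of 44 genes fell and 1 rose, with a median of -1.54. In condensin, cohesin and topoisomerase II 16 of 19 fell and 1 rose.

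MKI67, the proliferation marker Ki-67, was at 684, 621 and 665 under atirmociclib and 9181, 9371 and 8954 in vehicle (log2 fold change -3.80 ± 0.08, limma adjusted p = 6.71e-16). TOP2A was at 412, 524 and 339 against 3577, 3523 and 3512. Both genes kept the groups far apart. Of the 8 genes for MuvB and its partners, 7 fell, led by MYBL2 (-3.30), MYBL1 (-2.29) and FOXM1 (-2.07). Of the lists of S phase and mitosis, regulators of the ubiquitin ligases APC/C and SCF had the median nearest to 0. There, 13 of 23 fell, 5 were called and the median was -0.24, with FBXO5 (-3.09), UBE2C (-2.74) and CDC20 (-2.01) lowest. Together the cell cycle lists held 346 tested genes, of which 218 were called lower and 0 higher. They account for 32.0% of all genes called lower.

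Promoters of the lowered genes were searched for short motifs of cell cycle genes in the 250 bases before the start given by RefSeq (GRCh38.p14), on both strands. The motifs were the E2F site (TTTCCCGC, TTTCGCGC, TTTGCCGC or TTTGGCGC), the CHR element (TTTGAA), the CCAAT box, the TATA box (TATAAA), the octamer (ATTTGCAT) and the E box (CACGTG). No motif contains another. A promoter was matched for 10606 of 12878 protein-coding genes tested and for 470 of 580 called lower. An E2F site was held by 10.9% of the lowered genes against 4.68% of all genes, and a CHR element by 18.7% against 8.33%. The shares for genes at a log2 fold change of -3 or below, with 60 promoters, were 20% and 28.3%. The CCAAT box was held by 48.7% of the lowered genes and 70.0% of those at -3 or below, against 35.7% of all genes. The TATA box went from 5.56% of all genes to 12.6% and 31.7%, and the octamer from 1.49% to 4.89% and 15%. Without histones, 7.23% of the lowered genes held a TATA box and 0.932% an octamer, and the E2F and CHR shares were 9.56% and 17.7%. At -3 or below, 43 promoters are not of histones. Of these, 9.3% held an E2F site, 32.6% a CHR element, 62.8% a CCAAT box and 16.3% a TATA box. Only 78.2% of such genes had a promoter, below the 80% required here, so their comparison with all genes is void. Within the 60 promoters at -3 or below, 12 held an E2F site, and 4 of these were not of histones. The E box was held by 7.02% of lowered genes and 9.0% of all genes. For genes called higher only 75.1% had a promoter, below the 80% required here, so that comparison is void. These shares are descriptions without a test.

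The following windows show the E2F match of the 4 lowered genes named here with the lowest fold change among those that held one, with 20 bases on each side, 5′ to 3′ along the gene, and the match in capitals. H2BC14 is on chr6:27814800-27814847, plus strand. H2AC16 is on chr6:27865247-27865294, plus strand. H2BC17 is on chr6:27893208-27893255, plus strand. NUSAP1, which encodes a spindle protein, is on chr15:41332687-41332734, plus strand. In H2BC14 and H2BC17 the match reads on the opposite strand.
H2BC14: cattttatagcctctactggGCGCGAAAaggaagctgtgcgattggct
H2AC16: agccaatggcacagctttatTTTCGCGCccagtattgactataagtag
H2BC17: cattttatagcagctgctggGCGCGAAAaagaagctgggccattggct
NUSAP1: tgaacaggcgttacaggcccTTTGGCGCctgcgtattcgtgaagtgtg
The matches began 202, 50, 197 and 174 bases before the start, and the log2 fold change of NUSAP1 was -3.67, with those of the 3 histones given above.

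The corresponding CHR windows, chosen in the same way, came from H1-5, MKI67, the kinetochore gene SPC25 and ESPL1, which encodes separase. H1-5 is on chr6:27867740-27867785, minus strand. MKI67 is on chr10:128126427-128126472, minus strand. SPC25 is on chr2:168890652-168890680, minus strand, where the window is cut by the end of the 250 bases. ESPL1 is on chr12:53268248-53268293, plus strand. In H1-5 the match reads on the opposite strand, and MKI67 held 2 matches, of which the capitals mark the one nearest to the start.
H1-5: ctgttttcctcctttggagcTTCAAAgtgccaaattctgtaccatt
MKI67: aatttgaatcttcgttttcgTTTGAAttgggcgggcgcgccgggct
SPC25: ttaTTTGAAgccgataaatgacttgtcgt
ESPL1: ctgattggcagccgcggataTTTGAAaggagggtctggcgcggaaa
The matches began 177, 29, 247 and 31 bases before the start. SPC25 (-3.70) and ESPL1 (-3.61) were both called lower.

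Androgen-responsive genes moved the other way, by smaller amounts. Of 59 androgen response genes, 36 rose and 7 fell by adjusted p, against 16.6% and 15.4% of all genes, and the median was 0.31. Of the 59, 4 were called higher, namely NDRG1 (2.11), BMPR1B (1.51), MAF (1.49) and TMPRSS2 (1.34), against 1.50% of all genes. TMPRSS2, a membrane protease gene on chromosome 21 (41464300 to 41531116) known to respond to androgens, was at 14599, 14983 and 14641 under atirmociclib and 5672, 6056 and 5691 in vehicle. The groups lay 2.54-fold apart (log2 fold change 1.34 ± 0.07, limma adjusted p = 2.00e-11). KLK3 rose from 23132, 24802 and 22731 to 32583, 31526 and 32630, a log2 fold change of 0.45 ± 0.05. The co-chaperone FKBP5 rose by 0.22. The members that fell included CCND3, NCAPD3 (-0.75) and INPP4B (-0.48). NDRG1 is also hypoxia-inducible and a member of that list too.

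Of the prostate lineage factors, HOXB13 and GATA2 rose by 0.27 each. FOXA1, a pioneer factor, differed by 0.09 and was not past the test. Among prostate surface antigens, many of them targets of imaging or antibody therapy, 8 of 13 rose and 0 fell, with a median of 0.36. TMEFF2, STEAP1 and FOLH1 (prostate-specific membrane antigen) rose by 0.78, 0.63 and 0.36 on the log2 scale.

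The UGT2B genes, whose enzymes inactivate androgens by glucuronidation, fell steeply. UGT2B11 on chromosome 4 (69199951 to 69214748) was at 75, 68.5 and 65.1 under atirmociclib and 1573, 1327 and 1230 in vehicle, 19.8-fold lower (log2 fold change -4.28 ± 0.15, limma adjusted p = 2.31e-13). UGT2B15 was at 370, 379 and 362 against 3308, 3278 and 2881, a log2 fold change of -3.09 ± 0.09. The groups were fully apart in both genes. UGT2B28 (-3.70), UGT2B10 (-2.69) and UGT2B17 (-1.87) fell as well. UGT2B10 and UGT2B11 share 312 bases at 98.1% identity, and UGT2B15 and UGT2B17 share 551 at 99.3%, so reads could be split between the copies. Over the whole list of steroid metabolism, 7 of 16 genes fell and 2 rose, and the median was -0.48.

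Hypoxia-inducible genes, which the HIF factors switch on at low oxygen, held the largest rises. Of 48 tested, 32 rose, 0 fell and 17 were called higher, with a median of 0.51. PLOD2, a collagen lysyl hydroxylase on chromosome 3 (146035139 to 146163725), was at 497, 375 and 443 under atirmociclib and 2.09, 24.1 and 13.3 in vehicle. Vehicle was uneven yet lay below every treated library (log2 fold change 5.40 ± 0.73, limma adjusted p = 1.45e-05). NDUFA4L2, a mitochondrial HIF target on chromosome 12, was at 2377, 1928 and 2092 against 41.1, 113 and 70.3, 28.5-fold higher (4.93 ± 0.69, limma adjusted p = 1.99e-05). SLC16A3, the lactate exporter MCT4, rose by 3.10, and the angiogenic factor VEGFA rose from 2035, 2287 and 1974 to 6350, 3841 and 6262. These genes kept the groups apart but had wider spreads than cell cycle genes.

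Single libraries stood apart within their groups for these genes. In 15 of the 17 called members vehicle replicate 2 was the highest vehicle library, and in 15 of 17 atirmociclib replicate 2 was the lowest treated library. Summed over the 50 genes of the list, the level was 245989, 230085 and 237156 under atirmociclib against 162411, 171824 and 162991 in vehicle, 1.43-fold higher. Under AU2-94 it was 209310, 244084 and 236547, with replicate 1 lowest. With each of the 6 libraries left out in turn, 27 to 32 members rose and 15 to 17 were called. Among glycolytic members PGK1, LDHA and GAPDH rose by 1.14, 0.59 and 0.28. The genes for the factors themselves, HIF1A (0.03) and EPAS1 (-0.26), were not past the test. HIF1A-AS3, a non-coding gene antisense to HIF1A, was among the 12 largest rises, with 127, 76.6 and 113 against 0.689, 17 and 0 (5.06 ± 0.78, limma adjusted p = 6.17e-05). It overlaps 299 exon bases of HIF1A on the other strand and shares 123 bases at 98.4% identity with XACT, so its value is uncertain. Oxygen and cell density in the wells are not given per library, and their part in these values was not tested.

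The other large rises were mixed in function. SCNN1G, a subunit of the epithelial sodium channel, rose from 13, 13.8 and 5.32 to 240, 101 and 192 (log2 fold change 3.94 ± 0.80, limma adjusted p = 8.72e-04). AKAP12, a kinase scaffold, rose by 3.16 ± 0.70 and VSTM2L by 2.66 ± 0.38. OR51E1, a prostate-expressed olfactory receptor, rose from 35.1, 28.5 and 20.3 to 199, 198 and 182 (2.77 ± 0.23, limma adjusted p = 3.53e-08). RLN2, the hormone relaxin, rose by 2.3 ± 0.14. STC1 rose by 2.48, although vehicle replicate 2 with 54.9 stood far above the other vehicle libraries at 6.94 and 11.6. ENSG00000289316 rose by 2.45, but 753 of its exon bases overlap NDRG1 on the same strand, so its reads cannot be told from those of NDRG1. FOS rose by 2.49 ± 0.79 (limma adjusted p = 0.021), and its adjusted p was 0.0926 without vehicle replicate 2 and 0.0822 without atirmociclib replicate 1. It was at 130, 59.8 and 71.5 against 24.1, 7.02 and 15.1. The groups did not overlap, as in the 22.8% of tested genes that lay fully above vehicle.

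Genes for cytosolic ribosomal proteins rose together by small amounts. Of 78 tested, 76 rose by adjusted p and 0 were called, with a median of 0.33. RPL13A was at 56000, 58313 and 56210 against 37357, 39045 and 37393 (0.58 ± 0.04, limma adjusted p = 9.66e-10). With libraries quantile normalised, 54 rose and the median was 0.17. Ribosome biogenesis genes, with 9 of 51 higher and 9 lower, stayed near the shares of all genes (16.6% and 15.4%). In cholesterol and fatty acid synthesis 21 of 33 rose and 2 fell, with a median of 0.30, among them the desaturase SCD with 0.79 and the squalene synthase FDFT1 with 0.63. In lysosome and autophagy genes 17 of 38 rose and 4 fell. Of the 13 mitochondrially encoded genes 6 rose and the median was 0.13, but quantile normalisation turned this to -0.02 with 3 lower and 0 higher. Without atirmociclib replicate 2, 2 of the 13 rose.

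Stress and survival genes went in both directions. By adjusted p 16.6% of all genes rose and 15.4% fell, the shares to set beside the counts here and in the next paragraph. Among p53 targets 7 of 29 rose and 10 fell, with a median of 0.12. This median was -0.02 without vehicle replicate 1 and 0.0 without vehicle replicate 2. SESN1, a stress-responsive regulator of growth signalling, rose from 1250, 1166 and 1133 to 2545, 2810 and 2859 (1.21 ± 0.06, limma adjusted p = 3.95e-11). The repair gene DDB2 (-1.16) and the death effector PMAIP1 (-0.81) fell. In the unfolded protein and ATF4 response 16 of 34 rose and 12 fell, led downwards by the amino acid transporter SLC7A5 (-1.61) and the glutathione-degrading enzyme CHAC1 (-1.19). SLC7A5 shares 345 bases at 98.6% identity with ENSG00000291073, so its value is uncertain. BCL2, the survival factor, fell from 239, 317 and 153 to 68.6, 81.1 and 72.8 (-1.60 ± 0.32, limma adjusted p = 7.78e-04). In its family 4 of 14 rose and 4 fell. Of 40 interferon and antigen presentation genes 10 rose and 5 fell. OAS3, an RNA sensor (-2.44), fell while HLA-B (0.80) rose.

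Of senescence-associated genes 11 were tested, 1 rose and 5 fell. The nuclear lamina gene LMNB1 (-2.0) fell from 4585, 4594 and 4438 to 1076, 1149 and 1174, and VEGFA was the member that rose. MYC was at 9335, 9731 and 10485 against 8352, 7810 and 8367, a small rise without overlap (0.27 ± 0.06, limma adjusted p = 0.0034). In the MYC network the antagonists MXD4 (0.72) and MXD1 (0.44) rose and MXD3 (-2.49) fell. Of 36 immediate early genes tested, 10 rose and 5 fell, among them the antiproliferative factor BTG1 (0.97) and the phosphatase DUSP4 (-0.77). Of the 16 ID and BMP feedback genes 3 rose and 6 fell, the falls including ID2 (-0.63) and SMAD6 (-0.54). In luminal secretory and fatty acid genes 5 of 18 rose and 4 fell, against 16.6% and 15.4% of all genes.

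In the list for transcription elongation and CDK9, 5 of 27 were higher and 7 lower, against 16.6% and 15.4% of all genes. HEXIM1, the inhibitor of the CDK9 complex P-TEFb, was at 637, 609 and 648 against 1331, 1201 and 1356 in vehicle (-1.03 ± 0.06, limma adjusted p = 4.26e-10), and under quantile normalisation the log2 fold change was -0.99, short of a call. POLR2A (-0.74), the large subunit of RNA polymerase II, fell and the kinase gene CDK7 (0.59) rose. Of 3242 long non-coding RNA genes tested 3.08% were called lower and 1.63% higher, against 4.50% and 1.47% of 12878 protein-coding genes, a difference that was not tested.

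Atirmociclib was set against AU2-94, another CDK inhibitor of the study known here by its code name, at the matched dose of 1 µM and time of 24 h, the only pair of compounds compared here. Of 16137 genes, 150 (0.93%) were called lower under atirmociclib than under AU2-94 and 4 (0.0248%) higher, or 2 higher and 148 lower in the fit with the replicate block. By adjusted p alone 510 (3.16%) were lower and 239 (1.48%) higher. In histones 44 of 51 were lower, with a median of -1.29, and in origin licensing 19 of 27, with a median of -0.85. H1-5 was at 2302, 2087 and 2441 under AU2-94, between the atirmociclib and vehicle libraries, with a log2 difference of -3.22 ± 0.12 (limma adjusted p = 1.14e-11). CLSPN (-2.95) and H3C12 (-3.17) were also far lower. MKI67 was at 2180, 2296 and 2469 under AU2-94, a difference of -1.82.

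Other cell cycle lists were lower under atirmociclib as well, with 15 of 20 genes for cyclin B, CDK1 and mitotic kinases, 22 of 31 for kinesins and spindle proteins, 28 of 44 for the kinetochore and 13 of 19 for condensin, cohesin and topoisomerase II. In cholesterol and fatty acid synthesis 9 of 33 were higher and 1 lower, with a median of 0.11, against 1.48% and 3.16% of all genes. The UGT2B11 libraries of AU2-94 were at 65.6, 65.8 and 74.3, with a difference of 0.02 ± 0.15 and a 95% interval from -0.31 to 0.35. In hypoxia-inducible genes 1 of 48 differed and the median was 0.07, in ribosomal proteins 0 of 78, and in androgen response 5 of 59 were higher and 4 lower under atirmociclib. TMPRSS2 was higher by 0.42 ± 0.07 (limma adjusted p = 6.68e-04), with AU2-94 at 10043, 12189 and 10920. HEXIM1 was at 1192, 1228 and 1214 under AU2-94 with a difference of -0.94 ± 0.06 (limma adjusted p = 1.48e-08). The 4 genes called higher under atirmociclib were the cyclin gene CCNB3 (1.62 ± 0.43), ENSG00000269889 (1.06 ± 0.16) and, at lower levels, ENSG00000227782 (1.73) and PANK1-AS1 (2.88). The calls of ENSG00000227782 and PANK1-AS1 were lost in the paired fit with the replicate block. The CCNB3 call (limma adjusted p = 0.0354) was lost in 8 of the alternatives, for instance without AU2-94 replicate 1, where its adjusted p was 0.181.

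Raising atirmociclib from 1 to 2 µM changed little at 24 h. By adjusted p 1 gene was higher (0.0062%) and 1 lower (0.0062%) of 16137, and 0 reached an absolute log2 fold change of 1, while 1431 had an unadjusted p under 0.05 in limma. The lower gene was HEXIM1, at 427, 441 and 497 at 2 µM, a difference of -0.48 ± 0.06 (limma adjusted p = 0.00612). The higher gene, AHCTF1, which encodes a nuclear pore and kinetochore protein, differed by 0.47 ± 0.06. For 81.8% of genes the 95% interval of the difference lay within -1 to 1, and for the others it reached past 1 in absolute value. MKI67, at 794, 657 and 626 at 2 µM, had an interval of -0.10 to 0.24, and E2F1 one of -0.20 to 0.16. Replicate 3 at 2 µM stood apart for hypoxia-inducible genes, with a sum of 174335 against 261948 and 236997 in replicates 1 and 2. PLOD2 was at 44.7 there and at 570 and 427 in the others.

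**Figure D2:**
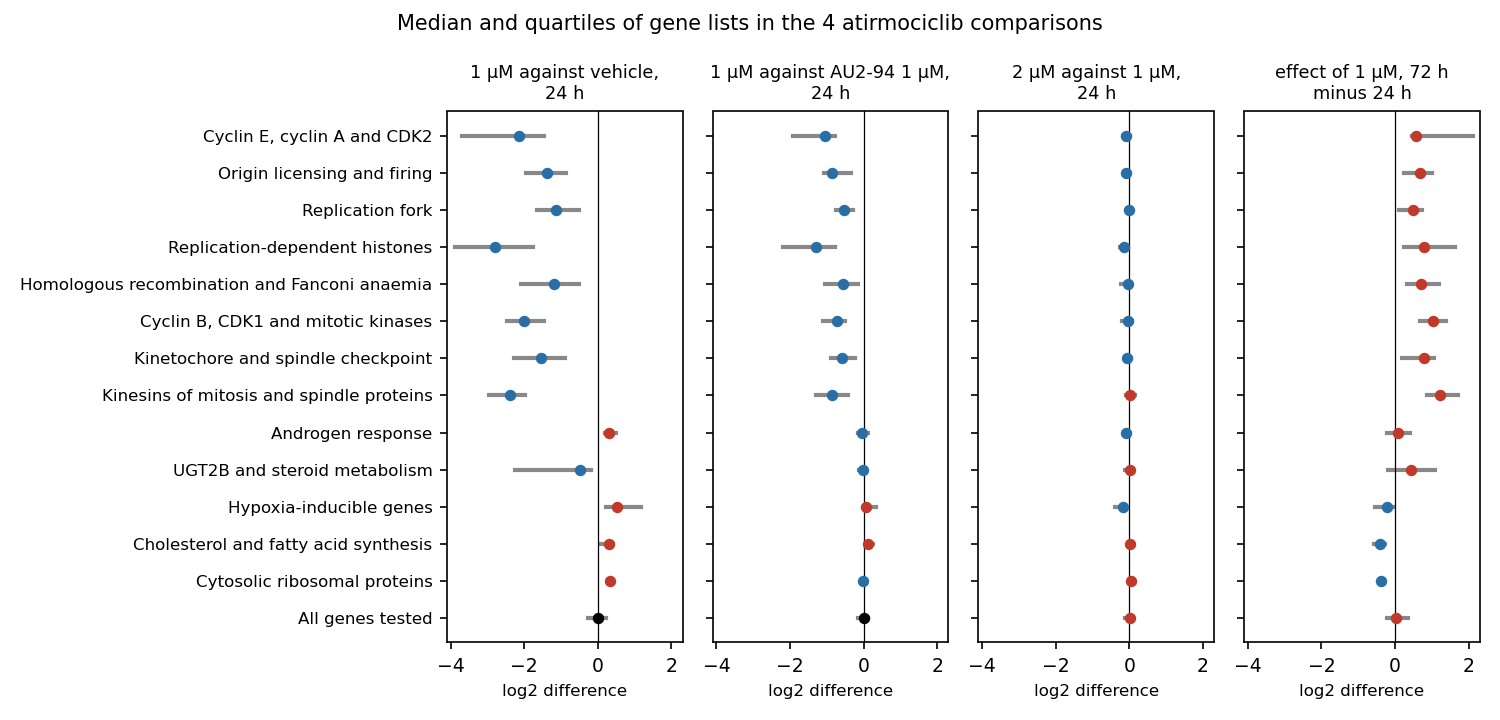
Median (point) and quartiles (bar) of log2 differences for 13 lists and all genes in the 4 comparisons that involve atirmociclib at 1 µM. Cell cycle lists lie below 0 against vehicle and against AU2-94, near 0 between doses, and above 0 for the effect at 72 h less the effect at 24 h, while the comparisons share libraries.

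The effect of atirmociclib 1 µM against vehicle was also compared between 72 h and 24 h, and cell cycle genes fell less at the later time. In the test of the difference between the effects, 628 of 16850 genes (3.73%) were called higher at 72 h and 92 (0.546%) lower, with 1906 (11.3%) and 1780 (10.6%) by adjusted p alone. With quantile normalisation 465 were higher and 170 lower, so that falls made up 26.8% of calls in place of 12.8%. The difference was positive and past the adjusted p for 27 of 31 kinesin and spindle genes, with a median of 1.22, and for 18 of 20 mitotic kinase genes, with a median of 1.04. H1-5 at 72 h was at 2020, 1908 and 1928 against 10804, 11189 and 11465 in vehicle, still lower in every library, and its difference between times was 2.68 ± 0.13 (limma adjusted p = 5.35e-15). MKI67 was at 3154, 2993 and 2991 against 9672, 9199 and 9766, with a difference of 2.15 ± 0.10. E2F1 changed less, by 0.40 ± 0.11 (limma adjusted p = 0.00683).

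Other groups went differently with time, where by adjusted p 11.3% of all genes had a positive and 10.6% a negative difference. Ribosomal protein genes had a negative difference in 70 of 78, with a median of -0.37, and cholesterol genes in 20 of 33, with a median of -0.42. Of 59 androgen response genes 15 had a positive and 16 a negative difference by adjusted p, with a median of 0.07. Among them, the effect against vehicle was larger at 72 h for KLK3 and TMPRSS2, by 0.92 ± 0.07 and 0.78 ± 0.10. UGT2B15 was at 1031, 1058 and 960 at 72 h against 2886, 3308 and 3168, with a difference of 1.47 ± 0.12, so that the fall was smaller. FOS turned direction. At 72 h it was at 15.1, 6.51 and 15.1 under atirmociclib against 182, 289 and 235 in vehicle, and the difference was -6.71 (limma adjusted p = 7.60e-06). ID1, an inhibitor of differentiation factors, was 607 to 684 against 560 to 685 at 24 h, where the groups overlapped, but 61.6 to 87.3 against 504 to 540 at 72 h (difference -2.88 ± 0.33, limma adjusted p = 1.14e-07). Time and seeding density cannot be told apart in this contrast.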

How the data were processed

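RNA sequencing of LNCaP cells was grouped by the labels. Following the study's methods, total RNA was taken with TRIzol and made into libraries with a total RNA kit (Universal Plus Total RNA-Seq with NuQuant). The submitters' processing notes name STAR 2.6.1d, DESeq2 and GRCh38. The authors deposited a signal on the scale of reads, normalised counts for 29872 genes. Annotation, counter and strand setting are not given in the sources used here. Whole reads could not be recovered, so no count model was used, and the depth behind a value is known only on this scale.

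The model was limma 3.58.1 (R 4.3.3; lmFit and eBayes with trend), fitted to log2 values with a pseudocount of 1. The 18 libraries of 24 h shared a fit, and the change of effect with time used all 36. Adjustment followed Benjamini and Hochberg over all genes of a contrast. The model was tested on simulated data first. A level up to 3 was treated as the floor. P-values rest on the spread between the 3 cultures of each group, all of a single line. This spread was pooled over all groups of a fit and moderated across genes by eBayes.

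The 40 gene lists, named genes and comparisons were chosen with earlier results of these data known. Named genes were the 12 largest called rises and the 12 largest called falls with a mean over the 6 libraries of 50 or more, a fixed panel of cell cycle and androgen-responsive genes, up to 4 members of each list with the largest change past the adjusted p, and up to 3 called genes per direction in each other contrast. Outside this rule, CCNB1, CCNE1, CDKN1B, E2F3, E2F4, FOXA1, HOXB13, GATA2, FOLH1, INPP4B, NCAPD3, UGT2B17, HIF1A, EPAS1, PGK1, LDHA, GAPDH, HLA-B, AHCTF1, ENSG00000227782 and PANK1-AS1 were named after their values were seen. A few named genes and 1 list are not reported here.

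Positions and exon overlaps came from GENCODE 44 (GRCh38), and near-identical copies (100 bases or more at 98% identity) from BLAST 2.17.0. Promoter sequences are RefSeq's, and the 8 windows printed matched hg38 letter for letter. Libraries with the same replicate number may share a batch, so they were treated as paired in an alternative fit. Their deviations correlated across genes at 0.00877, 0.0404 and 0.0578 in the main comparison. Main values come from the unpaired fit. Other alternatives changed the pseudocount, filter, scaling, variance model and libraries.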

Additional observations from a re-analysis of the deposited data

Results flagged for a closer look

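The effect of atirmociclib 1 µM against vehicle differed between 24 h and 72 h by the interaction term in limma for 628 genes with a higher and 92 with a lower value at 72 h. Among the named genes with the largest changes at 24 h, the difference in log2 units was 2.68 for H1-5, 2.64 for H2BC14, 2.23 for H3C12, 1.94 for H2AC16 and 2.12 for H2BC17. It was 2.64 for CLSPN, 2.09 for E2F8, 2.72 for KIF20A and 2.3 for RRM2. In the panel it was 2.11 for CCNE2, 2.11 for CCNA2, 1.43 for CDK1, 2.15 for MKI67 and 1.64 for TOP2A. All of these genes fell at 24 h, so a positive difference means a smaller fall at 72 h.

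Among genes raised at 24 h, the difference was 2.64 for OR51E1, which was at 247 to 289 against 4.58 to 6.75 in vehicle at 72 h, and -6.71 for FOS. The largest further differences were -2.88 for ID1, -2.68 for IGF1, 3.17 for the cholesterol exporter ABCA1 and 3.04 for the non-coding ENSG00000290700. ABCA1 was at 10.8, 26.7 and 23 against 145, 45.1 and 122 at 24 h and at 57.0, 67.1 and 67.2 against 36.6, 27.5 and 35.1 at 72 h, so its direction turned. ENSG00000290556 had a difference of 9.73, but it was listed at 0 in some libraries of several groups and shares sequence with NAIP, so this value does not carry a direction. ENSG00000290700 shares 1887 bases at 99.4% identity with ENSG00000290596.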

How the results depend on the processing

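In the comparison of 1 µM with vehicle the counts changed by over 1.5 times under 1 alternative, a mean of at least 100, which left 80 higher and 384 lower among 11289 genes. Leaving out 1 library at a time gave 221 to 246 higher and 609 to 671 lower, and quantile normalisation 313 and 596. With the replicate block, the paired fit, 241 were higher and 681 lower, and it changed no call of the genes named by the rule. Against AU2-94 it left 2 higher and 148 lower and lost the calls of ENSG00000227782 and PANK1-AS1. Against AU2-94, the 4 higher genes became 8 without the filter, 0 with a mean of at least 100, 7 with quantile normalisation, 2 in the 2 groups alone and 14 with all 36 libraries, with 3 to 7 over libraries left out (7 without AU2-94 replicate 2). Between doses, 1 gene was lower in the 2 groups alone, 1 was higher and 1 lower with all 36 libraries, and 0 to 1 was lower over libraries left out (1 without atirmociclib 2 µM replicate 2). For the change of effect with time, a mean of at least 100 gave 341 higher and 27 lower, and quantile normalisation gave 170 lower. The filter leaves fewer genes. For the other settings the cause was not tested.

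Among values of named genes under these alternatives, 3140 kept direction and side of the threshold, 32 lost the call and 6 gained one. CCNB3 lost its call against vehicle in 9, and the other losses were of FOS, H4C14, H4C15, CD68, HEXIM1, ENSG00000269889 and ENSG00000290556. CDK4, CDK6, MT-CO1 and MT-ATP6, none of them called, moved to 0 or the other sign in 7. Depth limits the low genes, where most rises lie.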

Other observations

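Several genes outside the naming rule moved, and those named here were chosen after their values were seen. Among falls, the cell division gene CDCA3 was at 78.7, 82.6 and 72.6 under atirmociclib and 1151, 1096 and 1130 in vehicle (log2 fold change -3.84 ± 0.11, limma adjusted p = 1.25e-14). FAM111B (-3.23), a protease gene of replicating cells, the DNA damage histone H2AX (-2.27) and the nuclear lamina gene TMPO (-2.3) fell as well. The 4 similar genes FAM72A to FAM72D had log2 fold changes from -3.43 to -1.94, and reads could be split between these copies. Exons of CDCA3, TMPO, FAM72A and FAM72B overlap a gene on the opposite strand, so reads from these partners cannot be told apart.

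Among rises, RLN1 was at 1002, 908 and 950 against 222, 202 and 265 (2.06 ± 0.08, limma adjusted p = 8.15e-13), beside its neighbour RLN2 described above. The potassium channel gene KCNN2 rose from 2991, 3004 and 2932 to 7357, 7481 and 7392 (1.32 ± 0.04, limma adjusted p = 8.33e-15). Of its exon bases, 77 overlap a gene on the opposite strand. CD274, which encodes the immune checkpoint ligand PD-L1, rose from 74.4, 30.4 and 93.9 to 218, 238 and 222 (1.90 ± 0.32, limma adjusted p = 1.46e-04). CFAP69 rose by 1.36, CFAP251 by 1.38 and SPEF2 by 1.59. These 3 genes encode proteins of cilia or flagella, and no list of such genes was counted. No cause of these changes was tested.

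Among protein-coding genes, those with the most exons in a transcript (over 18) were lower by adjusted p in 22.9% and higher in 13.2%. Those with at most 5 were lower in 14.2% and higher in 22.5%. Without the replication-dependent histones the shares of the latter were 12.9% and 22.9%. These shares are descriptions without a test.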
